A study of Homo sapiens with 4 samples.

Results

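The short arms of chromosomes 13, 14, 15, 21 and 22 are the subject here. They were taken as every SAF-A peak whose summit lay on the hs1 human assembly below 15.5 Mb on chromosome 13, 10.1 Mb on chromosome 14, 16.7 Mb on chromosome 15, 10.9 Mb on chromosome 21 and 12.8 Mb on chromosome 22. Peaks within 5 kb of the chromosome start, 28 in all, were left out. The rule used position only. It found 1017 of the 371322 nuclear peaks of the 4 libraries, and these merged into 619 of 242505 regions where peaks sharing at least 1 bp were joined.

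SAF-A was profiled by CUT&Tag, a method that cuts and tags DNA next to an antibody-marked protein and sequences the fragments. All 4 libraries came from wild-type RPE1 cells, an immortalised line of human retinal pigment epithelium. One group was asynchronous cells and the other was cells synchronised in mitosis, each with replicates numbered 3 and 4, and the labels give neither the synchronising agent nor whether replicates were separate cultures. The spread behind each p-value is thus that between these samples alone, and it may be technical.

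Acrocentric chromosomes have their centromere close to one end, and their short arms carry the ribosomal RNA gene arrays around which nucleoli form, embedded in satellite repeats and segmental duplications. The 5 short arms share long stretches of near-identical sequence and come together at nucleoli in interphase. SAF-A, also called HNRNPU, binds DNA and RNA and is known for holding chromatin-associated RNA on chromosomes and for leaving most of the chromatin during mitosis. How reads that match several arms equally were placed is not stated in the sources used here. A signal on one arm can therefore include fragments from a like sequence on another, and the copies cannot be told apart.

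Depth was compared by the background of each peak list, the smallest number of fragments the peak caller took as locally expected. Where 4 values follow each other below, they are asynchronous replicate 3, asynchronous replicate 4, mitotic replicate 3 and mitotic replicate 4, in this order. The background was 1.38, 1.17, 1.17 and 1.79 fragments. The lists held 101124, 76460, 78900 and 114838 nuclear peaks, so that list length followed this background. Summit heights are given as pileups, the number of fragments overlapping a summit, and no summit in any list had fewer than 6. Pileups are small counts, so that counting error alone is large for most regions.

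The short arms carried few SAF-A peaks in either cell state. They held 280, 204, 259 and 274 peaks. As a share of each library's nuclear peaks this was 0.277%, 0.267%, 0.328% and 0.239%. The mitotic shares lay on both sides of the asynchronous ones. The means were 0.272% ± 0.00713 and 0.283% ± 0.0634 (SD, n = 2 each), and the exact two-sided permutation test gave p = 1. With 2 libraries against 2 that test cannot go below 0.333.

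Per Mb, the short arms had 4.24, 3.09, 3.93 and 4.15 peaks. The long arms of the same chromosomes, taken from 3 Mb past each limit to leave out the centromere, had 37.1, 27.9, 28.1 and 41.1 peaks per Mb. The short arms were thus at 0.114, 0.111, 0.140 and 0.101 of the long-arm density, lower in 4 of 4 libraries with a mean ratio of 0.116. An exact two-sided sign-flip test over the libraries gave p = 0.125, the smallest it allows with 4 libraries. Asynchronous cells had a mean ratio of 0.113 ± 0.00237 and mitotic cells one of 0.120 ± 0.0273 (SD, n = 2 each, exact permutation p = 1), a difference well within the spread between the mitotic libraries. Covered length gave a nearly equal mean ratio of 0.118.

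**Figure D1:**
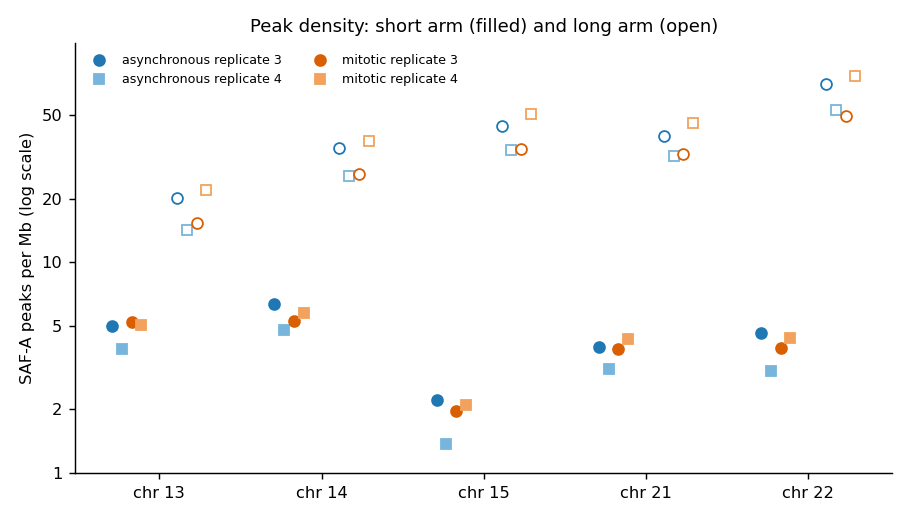
SAF-A peaks per Mb (y axis, log scale) on the short arm (filled) and long arm (open) of each acrocentric chromosome (x axis), with 1 point per library, blue for asynchronous and orange for mitotic. On every chromosome the 4 short-arm points lie below the 4 long-arm points, and the blue and orange points interleave except on the short arm of chromosome 13.

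The shortfall differed in size among the chromosomes. Chromosome 13 had the smallest, with a mean short-to-long density ratio of 0.273. Chromosome 14 followed with 0.180 and chromosome 21 with 0.103, and the lowest ratios were 0.0652 on chromosome 22 and 0.0474 on chromosome 15. In every library this order was the same, and the range over libraries did not overlap between neighbours except for chromosomes 22 and 15, whose ranges met at 0.0573 (lowest on chromosome 22 and highest on chromosome 15). The adjusted exact sign-flip p was 0.125 on each chromosome. Among peaks with a -log10 q of at least 5, the ratio was 0.502 on chromosome 13 and 0.0782 on chromosome 15, both more than 1.5 times higher, and chromosome 22, at 0.0487, was then the lowest. The long arms entered these ratios too: that of chromosome 22 had 69.8 and 52.5 peaks per Mb in asynchronous replicates 3 and 4, and that of chromosome 13 had 20.2 and 14.1. By density on the short arm itself, chromosome 14 ranked first in each library, with 6.34, 4.75, 5.25 and 5.75 peaks per Mb, and chromosome 15 last with 2.22, 1.38, 1.98 and 2.10.

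Cell state separated the peak count on 1 arm. The chromosome 13 short arm had 77 and 60 peaks in asynchronous cells and 81 and 78 peaks in mitotic cells, so that both mitotic counts were above both asynchronous ones (exact permutation p = 0.333, the smallest possible). As a share of each list the same arm had 0.0761% and 0.0785% in asynchronous and 0.103% and 0.0679% in mitotic cells, and there the groups overlapped. Chromosome 14 had 64 and 48 against 53 and 58 peaks, chromosome 15 had 37 and 23 against 33 and 35, chromosome 21 had 43 and 34 against 42 and 47, and chromosome 22 had 59 and 39 against 50 and 56. On each of these 4 arms the groups overlapped. Peak widths on the short arms had medians of 293.5 and 286.5 bp in asynchronous and 321 and 307 bp in mitotic libraries (exact permutation p = 0.333). The long arms of the same chromosomes showed this too, with 297 and 288 bp in asynchronous and 310 and 326 bp in mitotic libraries. The width difference was thus not particular to the short arms. The narrowest peak of the whole list also differed, at 174, 169, 183 and 182 bp, and its part in the width difference was not tested.

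Peaks were missing from long stretches and were also sparser where they did occur. Of 660 windows of 100 kb on the short arms, 186 (28.2%) had a peak in any library, against 2692 of 3301 (81.6%) on the long arms. On the chromosome 15 short arm 22 of 167 windows (13.2%) had one. Within occupied windows alone the short arms still had a mean of 0.337 of the long-arm density. There were 30 stretches of at least 500 kb with no peak in any of the 4 libraries, and together they made up 40.7 of the 66 Mb (61.6%). The long arms of the same chromosomes had 29 such stretches over a far greater length, with 21.9 Mb in all and none longer than 1.74 Mb.

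By arm, peak-free stretches took 88.7% of chromosome 15, 72.4% of chromosome 21, 51.5% of chromosome 13, 49.7% of chromosome 22 and 35.9% of chromosome 14. The longest ran from 6142107 to 9683016 on chromosome 15 (3.54 Mb) and from 5677235 to 9182896 on chromosome 13 (3.51 Mb). Whether these stretches are ribosomal RNA gene arrays or satellite blocks was not tested, since no annotation of the hs1 assembly was used here. A stretch without peaks can also be one where fragments could not be placed or where no summit stood out from its surroundings, and these cannot be told apart in peak lists.

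**Figure D2:**
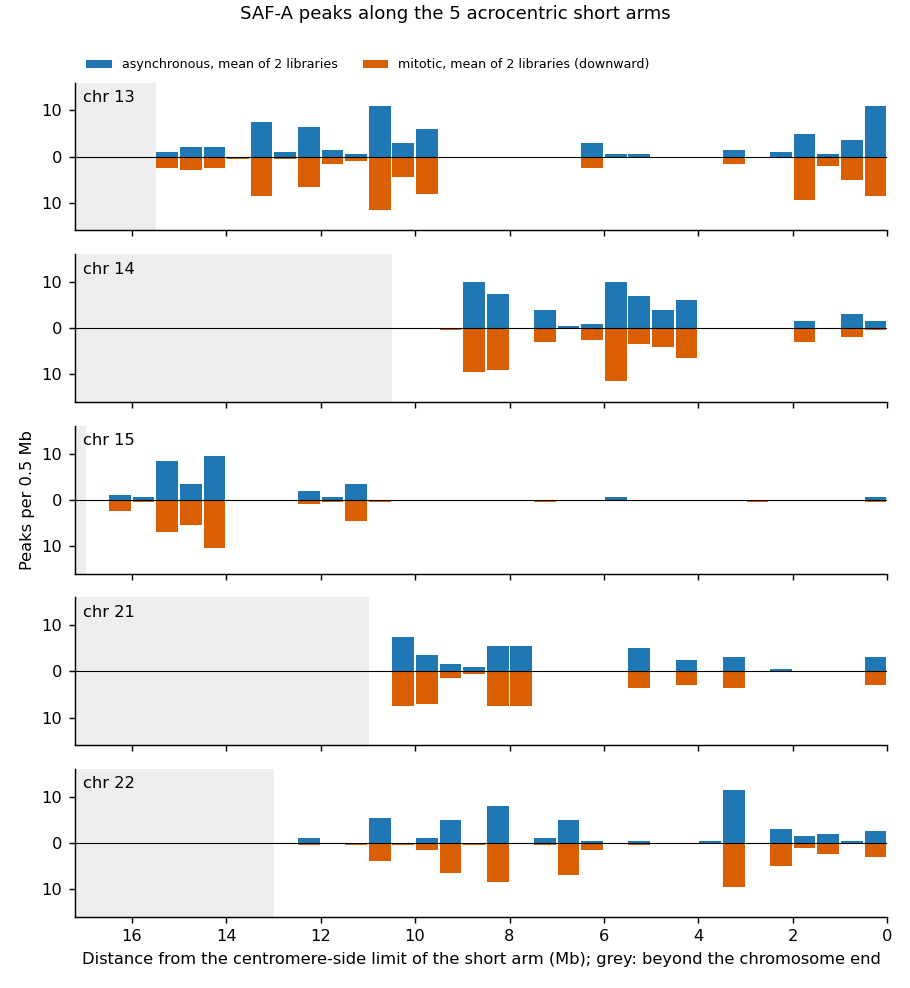
SAF-A peaks per 0.5 Mb (y axis) along each short arm by distance from its centromere-side limit in Mb (x axis, with the chromosome end to the left), as the mean of the 2 asynchronous libraries (blue, upward) and the 2 mitotic libraries (orange, downward). Blue and orange bars stand at nearly the same places, peaks gather in a few bins, and chromosome 15 is nearly empty over its inner 11 Mb.

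Just inside and outside the rule's limits the regions were as follows. The last region inside the chromosome 13 limit lay 38.2 kb before it with summits of 11, 6, 11 and 12 fragments, and the first outside lay 5.46 kb past it with 7 fragments in 1 library. On chromosome 21 the last inside had 14 fragments in 1 library, and the first outside, 11.3 kb past the limit, had 9, 9, 14 and 15. On chromosome 14 the last inside had 11 and 6 fragments in the asynchronous libraries only, and the first outside had 12 in 1 library. The regions beside the limits of chromosomes 15 and 22 were each called in 1 library, with 8 to 10 fragments.

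Where peaks did occur, their summits were somewhat lower than on the long arms. Median short-arm pileups were 10, 10, 10 and 12 fragments, against long-arm medians of 12, 11, 11 and 14. The difference in log2 pileup was -0.26, -0.14, -0.14 and -0.22, lower in 4 of 4 libraries (mean -0.19, exact sign-flip p = 0.125, the smallest possible). The authors' fold enrichment, which divides the summit by the local background, gave the opposite direction, with short-arm medians of 4.20, 4.51, 4.51 and 4.17 against 3.76, 3.89, 3.91 and 3.62 on the long arms. The local background under short-arm peaks had medians of 1.38, 1.17, 1.25 and 1.79 fragments, close to or at the lowest value of each list, and that under long-arm peaks 2.25, 2.10, 1.93 and 2.95. The short arms thus had lower summits on a lower background.

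The arms were not alike in strength. On chromosome 13 the median log2 pileup of the short arm was above that of its long arm in 4 of 4 libraries, by a mean of 0.19. On chromosome 22 it was below in 4 of 4 libraries, by a mean log2 difference of -0.56, and chromosomes 14 and 21 were below by means of -0.27 and -0.18. Chromosome 15 was below in 2 libraries and equal in 2. By the authors' fold, the mean log2 difference was above 0 on each of the 5 arms, at 0.29 on chromosome 13, 0.03 on chromosome 14, 0.29 on chromosome 15, 0.26 on chromosome 21 and 0.13 on chromosome 22, so that chromosome 13 stood apart by pileup but not by fold. For pileup, the adjusted exact sign-flip p was 0.156 on chromosomes 13, 14, 21 and 22 and 0.5 on chromosome 15. Between cell states no arm's pileup difference exceeded the spread between libraries (adjusted exact permutation p = 1 on each). By fold, the chromosome 13 difference was 0.290 and 0.349 in asynchronous and 0.264 and 0.241 in mitotic libraries. Those groups did not overlap (exact permutation p = 0.333 before adjustment, the smallest possible), while on each other arm they did.

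Although few, the short-arm regions as a whole recurred between libraries more often than long-arm ones. Of the 619 regions, 438 were called in 1 library, 66 in 2, 41 in 3 and 74 in all 4. The share in all 4 was 12.0% (95% Wilson interval 9.63% to 14.7%, which covers counting error only), against 8.10% (7.79% to 8.42%) on the long arms and 8.38% over all nuclear regions. Of the peaks of single libraries, 29.3%, 39.7%, 31.3% and 28.8% on the short arms lay in a region shared by all 4, against 20.1%, 26.8%, 26.4% and 18.0% on the long arms. These shares describe the lists, since regions are not replicates.

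The share of regions called in all 4 libraries was higher on chromosomes 13 and 21 than on 14 and 22. Regions in all 4 libraries numbered 32 of 152 (21.1%) on chromosome 13, 16 of 89 (18.0%) on chromosome 21, 10 of 72 (13.9%) on chromosome 15, 9 of 158 (5.70%) on chromosome 14 and 7 of 148 (4.73%) on chromosome 22. The intervals of chromosomes 13 (15.3% to 28.2%) and 21 (11.4% to 27.2%) did not meet those of chromosomes 14 (3.03% to 10.5%) and 22 (2.31% to 9.44%). They cover counting error only, and since regions are not replicates this is no test of a difference between arms. Chromosome 14 had the highest peak density of the 5 short arms but a low share of regions called again in every library. Of its 158 regions, 124 were called in 1 library. Overlap in bases (Jaccard index) on the short arms averaged 26.9% between libraries of the same state and 27.2% between libraries of different states. On the long arms these were 19.4% and 19.2%, and these differences between same-state and different-state pairs were not tested.

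**Figure D3:**
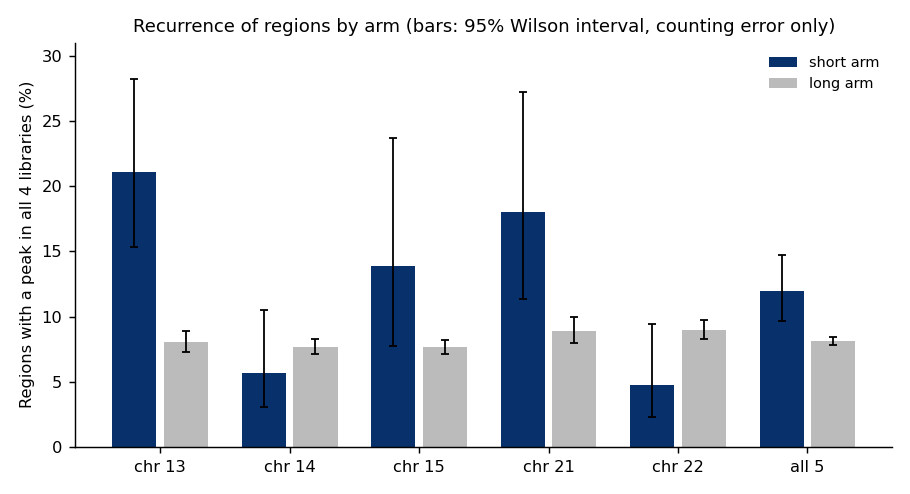
Share of merged regions with a peak in all 4 libraries in percent (y axis), by chromosome (x axis), for the short arm (dark) and long arm (grey), with 95% Wilson intervals as error bars. The short-arm bars run from 4.73% on chromosome 22 to 21.1% on chromosome 13, while the long-arm bars lie between 7.65% and 8.99%.

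A group of 3 regions stood at the same spacing on all 5 short arms. Counting from the chromosome end inward, the first lay 156 to 158 kb before the second, and the third lay 41.4 to 44.1 kb after it. The pattern was noticed in these data and searched for afterwards among regions called in at least 2 libraries, so it is a description. The distances searched for were those on chromosome 13, 158 and 44.0 kb, with a tolerance of 5 kb. Chromosome 13 thus fitted by choice, and on the other 4 arms the distances could differ by at most that tolerance. Each short arm held it at 1 place, in the same orientation. The tolerance also let neighbouring regions fill a position, so that 2, 4, 1, 2 and 4 triples fitted on chromosomes 13, 14, 15, 21 and 22, always within a single span of 200 to 205 kb. Only 1 triple per arm is described below. The second region kept had a mean percentile of 87.4 on chromosome 14 and 89.5 on chromosome 22. A neighbour called in all 4 libraries had 74.5 and 82.8 there. In the opposite orientation 3 triples fitted on chromosome 13 and none on the other 4 arms. Long arms, with far more regions, held 260 to 1075 fitting triples each in the same orientation, spread over their length.

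The second region was the strongest of the 3 on most arms. It ran from 5631865 to 5633781 on chromosome 13, from 1963843 to 1964750 on chromosome 14, from 2369166 to 2371361 on chromosome 15, from 2970045 to 2971621 on chromosome 21 and from 4654766 to 4655934 on chromosome 22. Its summit pileups were 35, 30, 27 and 43 on chromosome 13, and 24, 19, 27 and 39 on chromosome 14. They were 47, 27, 33 and 45 on chromosome 15, 32, 27, 28 and 48 on chromosome 21, and 28, 27, 21 and 40 on chromosome 22. On each arm mitotic replicate 4, the deepest library, was highest or, on chromosome 15, second highest. Within their lists these summits ranked at mean percentiles of 87.4 to 94.0, and the regions were 908 to 2196 bp wide.

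The first region was also called in all 4 libraries on all 5 arms. It lay from 5473599 to 5474947 on chromosome 13 (21, 21, 17 and 29 fragments), from 1805148 to 1807041 on chromosome 14 (28, 19, 19 and 33) and from 2213684 to 2215644 on chromosome 15 (25, 18, 20 and 31). On chromosome 21 it lay from 2810657 to 2813038 (23, 22, 17 and 41) and on chromosome 22 from 4496944 to 4498743 (35, 20, 20 and 42). Its mean percentiles were 81.9 to 88.0. Neighbours that also fitted this position had lower ones, at 63.5 on chromosome 13 and 78.2 on chromosome 14 (3 libraries each). On chromosome 22 such a neighbour had 84.6 (4 libraries). The narrow range and the calls in all 4 libraries thus depend in part on which region was kept.

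The third region varied most. It was called in all 4 libraries on 3 arms, and on chromosome 14 it was the strongest of the spacing, from 2005103 to 2006018 with 32, 41, 52 and 60 fragments. On chromosome 15 it ran from 2412093 to 2413361 with 18, 12, 16 and 18 fragments, and on chromosome 21 from 3014043 to 3014822 with 13, 11, 17 and 25. On chromosome 13, from 5676269 to 5677234, it was called only in asynchronous replicate 3 (7 fragments) and mitotic replicate 4 (17). On chromosome 22, from 4699627 to 4699933, it was called only in asynchronous replicate 4 (11) and mitotic replicate 4 (10).

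**Figure D4:**
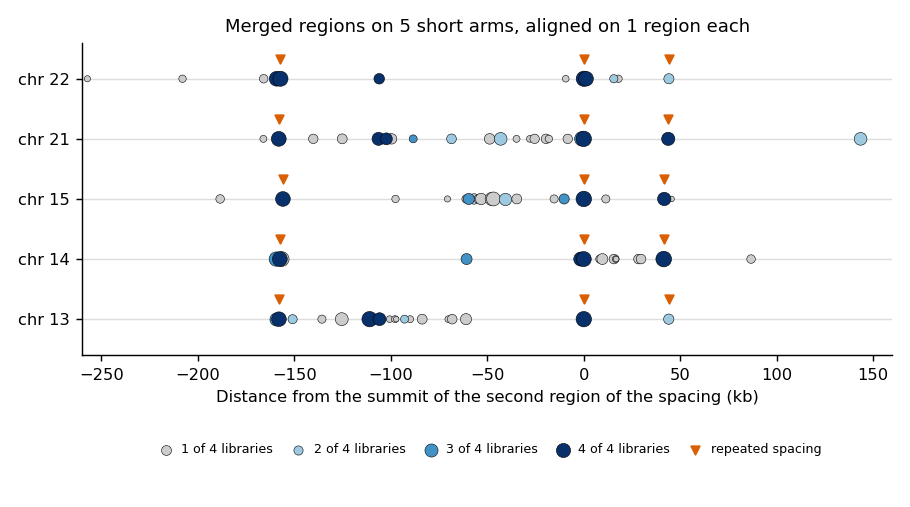
Merged regions on the 5 short arms (rows), by distance in kb from the summit of the second region of the repeated spacing (x axis, chromosome end to the left), shaded by the number of libraries with a peak and with point area growing with the mean percentile of the summit in its lists. Orange triangles mark the 3 regions of the spacing, which line up between arms at -158 to -156, 0 and 41.4 to 44.1 kb, and few regions lie to the right of the last.

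Whether the spaced regions on the 5 arms are copies of the same sequence was not tested. Since the placement of reads that match several arms is not known, their pileups were also added over the arms. The sums were divided by each library's background. The first region then stood at 90.7 ± 7.07 times background in asynchronous libraries and 88.9 ± 13.6 times in mitotic libraries (SD, n = 2 each, exact permutation p = 1). The second stood at 116 ± 6.31 and 118 ± 3.07 (exact permutation p = 1). The third stood at 57.5 ± 9.57 and 72.6 ± 0.185, with both mitotic libraries (72.5 and 72.7) above both asynchronous ones (50.8 and 64.3) and the smallest exact permutation p this design allows, 0.333. That sum counts an arm without a call as 0.

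On every arm the spacing was followed by a peak-free stretch of at least 500 kb. That stretch was 3506 kb long on chromosome 13, 688 kb on chromosome 14, 2272 kb on chromosome 15, 2459 kb on chromosome 21 and 861 kb on chromosome 22. It began directly after the third region on chromosomes 13 and 22, 3.50 kb after it on chromosome 15, 45.2 kb after it on chromosome 14 and 99.6 kb after it on chromosome 21. The block from 210 kb before to 50 kb after the second region held 86 regions. Of these, 21 were among the 74 called in all 4 libraries. The block was drawn around the spacing, so these 21 include the spacing's own regions. From the chromosome end inward, those were called in all 4 libraries on 5, 5 and 3 arms. The count of 21 therefore follows in part from where the block was placed.

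Over the 5 arms together, peak density differed between the sides of that stretch. The stretch was chosen as the first of at least 500 kb after the spacing, so the outer side holds the whole spacing by construction. Part of the difference may follow from this choice. Toward the chromosome end, 17.9 Mb in all, the libraries had 151, 104, 140 and 159 peaks, or 8.42, 5.80, 7.81 and 8.87 per Mb. Toward the centromere, 38.3 Mb in all, they had 129, 100, 119 and 115, or 3.37, 2.61, 3.11 and 3.01 per Mb. The outer side was denser in all 4 libraries on chromosomes 13, 14, 15 and 21. On chromosome 22 the sides were close, with 5.32, 3.41, 4.05 and 5.54 per Mb on the outer and 4.70, 3.18, 4.28 and 4.14 on the inner side, and mitotic replicate 3 had the inner side higher. The outer side held 51 of the 74 regions called in all 4 libraries and the inner side 23. On chromosome 22 the inner side had 98 regions and none was called in all 4 libraries, and on chromosome 14 it had 121 regions of which 3 were. On chromosome 15 the inner side had 7, 7, 11 and 5 peaks over 12.0 Mb.

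Some regions called in at least 2 libraries lay close together, and how often this held on the long arms was not counted. Of 181 such regions, 59 fell into 10 clusters of at least 4 with gaps of at most 25 kb, 4 of them on chromosome 13, 4 on chromosome 21, 1 each on chromosomes 14 and 22 and none on chromosome 15. The largest, on chromosome 14 from 1267701 to 1310064, had 11 such regions, of which 2 were called in all 4 libraries, and 13, 7, 8 and 11 peaks. On chromosome 13 a cluster from 2073648 to 2091579 had 7 regions with 6, 7, 6 and 8 peaks, and another from 4726837 to 4760859 had 6 regions with 8, 8, 7 and 7. In these clusters on chromosome 13 the libraries differed by at most 2 peaks, though members had to be called in at least 2 libraries.

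The highest summit of the short arms lay on chromosome 13 from 12167307 to 12168157. Its pileup was 6448, 4790, 5282 and 9903 fragments, while the next-highest short-arm summit in the same libraries was 66, 59, 52 and 77. This region alone made up 64.6%, 64.9%, 62.2% and 69.5% of all short-arm summit pileups added together. The highest summit of the mitochondrial genome in the same libraries was 39562, 31013, 31041 and 56536 fragments, and the chromosome 13 region stood at 16.3%, 15.4%, 17.0% and 17.5% of it. Both summits were highest in mitotic replicate 4. Whether the fragments at this region came from elsewhere in the genome was not tested.

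The other strong regions in all 4 libraries were far lower. Chromosome 13 from 3367685 to 3368108 had 66, 59, 45 and 77 fragments, and chromosome 13 from 4735340 to 4735761 had 39, 39, 47 and 59. Chromosome 13 from 13951081 to 13951563 had 39, 37, 45 and 40, and chromosome 13 from 5521151 to 5521877 had 33, 29, 25 and 47. On chromosome 14 the region from 5924494 to 5925765, which lies just before a 2.35 Mb peak-free stretch, had 34, 35, 30 and 31. The remaining members of the 10 strongest were the third region of the spacing on chromosome 14 and its second region on chromosomes 13, 15 and 21.

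Outside the spacing, the strongest region of chromosome 15 lay from 5568929 to 5569419 with 20, 26, 33 and 32 fragments, and that of chromosome 21 from 5603608 to 5604531 with 32, 26, 26 and 25. Over the 74 regions the median pileup was 17.5, 15, 18 and 25 fragments, against 24, 20, 19 and 32 for the long-arm regions called in all 4 libraries. Of the 74, 15 (20.3%) were wider than 1000 bp, against 22.3% on the long arms. High summits were rarer: 12 of the 74 (16.2%) had a mean percentile of at least 90 in their lists, against 736 of 2354 (31.3%) on the long arms.

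Between cell states, no short-arm region called in all 4 libraries changed by the test used. Summit pileups, divided by each library's median over the shared regions, were fitted with limma over all 20334 such regions. Of these, 0.0590% passed an adjusted p of 0.05, and 0 of the 74 short-arm regions did. The smallest limma adjusted p on the short arms was 0.253. At an unadjusted p of 0.05, 5 of the 74 passed, against 8.90% over all regions. The median log2 difference, mitotic minus asynchronous, was 0.05 on the short arms, -0.04 on the long arms and -0.02 over all regions, and 67 of the 74 lay within 0.5 of 0.

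Regions whose groups did not overlap were no more frequent than elsewhere. In 13 of the 74 both mitotic values were above both asynchronous ones, against 17.1% over all regions, and in 7 the reverse held, against 20.2%. Together this was 27.0% of the short-arm regions, against 37.3% over all regions. By arm the median difference was 0.03 on chromosome 13, 0.02 on chromosome 14, 0.23 on chromosome 15, -0.00411 on chromosome 21 and -0.02 on chromosome 22. On chromosome 15, 8 of 10 regions had a difference above 0, against 47.5% over all regions.

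The largest differences lay on chromosome 13. The region from 3453957 to 3454580 had 15 and 11 fragments in asynchronous and 29 and 24 in mitotic cells, a log2 difference of 0.87 (SE 0.31, limma adjusted p = 0.293). The region from 13978468 to 13978854 had 37 and 27 against 15 and 27, a difference of -0.82 (SE 0.27, limma adjusted p = 0.253). In both the scaled values of the groups did not overlap, though neither passed the threshold. Of the other 4 named for their size, chromosome 21 from 2864018 to 2864628 had 14 and 10 against 13 and 36 (0.71), and both mitotic values were above both asynchronous ones once scaled. The region on chromosome 15 from 1271054 to 1271813 had 21 and 7 against 23 and 20 (0.66), and there the scaled groups overlapped. Chromosome 13 from 3603360 to 3603785 had 25 and 26 against 19 and 21 (-0.52), and chromosome 21 from 7744219 to 7745113 had 15 and 13 against 7 and 18 (-0.48). In each of these falls both asynchronous values were above both mitotic ones once scaled. The highest chromosome 13 region had a log2 difference of 0.21 (SE 0.11, limma adjusted p = 0.562).

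**Figure D5:**
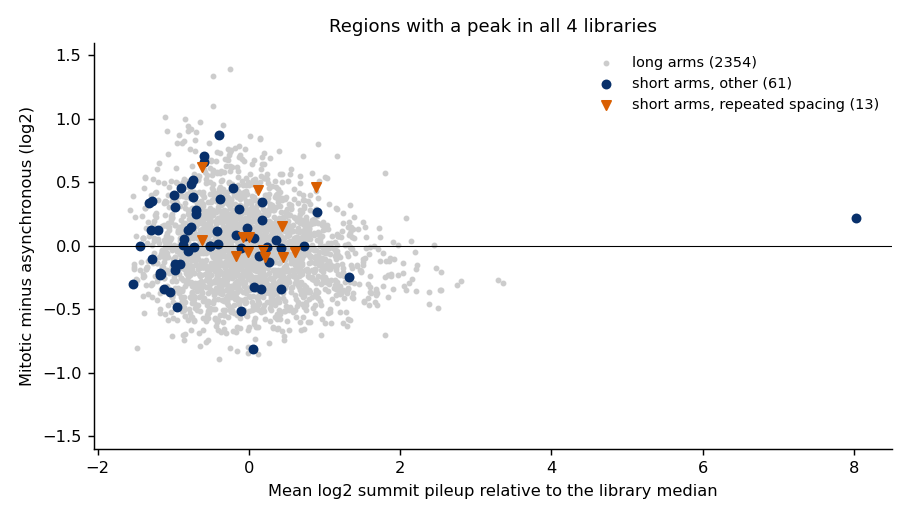
Log2 difference of summit pileup between mitotic and asynchronous cells (y axis) against the mean log2 pileup relative to the library median (x axis), for regions called in all 4 libraries on the long arms (2354, grey) and short arms (61 dark points and 13 orange triangles of the repeated spacing). Short-arm points lie among the grey ones from -0.82 to 0.87, and the lone point at the far right is the chromosome 13 region with 4790 to 9903 fragments.

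Coverage in 1 Mb windows gave no difference that passed either. The limma fit over 2931 windows with a peak in at least 2 libraries called 0% of them, and 6.86% had an unadjusted p under 0.05. Neither threshold was passed by any of the 40 short-arm windows (0 and 0). Their smallest limma adjusted p was 0.778, for chromosome 13 from 14000001 to 15000000, which had 5 and 3 summits in asynchronous and 6 and 8 in mitotic cells (log2 difference 0.94, SE 0.52). The mitotic value was above in 22 of the 40 windows, against 1574 of 2931 over the genome.

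Few regions were called in one state only. Of the 619, 10 (1.62%) had a peak in both asynchronous libraries and neither mitotic one, against 1.66% over all nuclear regions. In the other direction 18 (2.91%) had a peak in both mitotic libraries only, against 2.80%. These shares lay near those of the whole genome. Chromosome 14 held 5 of the 10 asynchronous-only regions, which was 3.16% of the 158 regions on its short arm. Chromosomes 13 and 21 held 6 and 5 of the 18 mitotic-only ones, or 3.95% of 152 and 5.62% of 89 regions.

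The strongest of them had at most 20 fragments. On chromosome 14 the region from 1274107 to 1274306 had 20 and 15 in the asynchronous libraries, and that from 2799391 to 2799625 had 14 and 9. On chromosome 13 the region from 15446904 to 15447086 had 20 and 13. This last region was 183 bp wide, as narrow as the narrowest peaks of the mitotic lists. Among mitotic-only regions, the one on chromosome 22 from 5806602 to 5807448 had 14 and 19, and the one on chromosome 21 from 6433049 to 6433445 had 14 and 18. On chromosome 13 the region from 3445740 to 3446079 had 19 and 14. It lay within a cluster on chromosome 13 from 3443949 to 3454580, which also held the region with the largest difference toward mitotic cells.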

How the data were processed

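SAF-A CUT&Tag was run, per the labels' protocols, with a commercial kit on 100000 cells per assay with 1 pg of E. coli DNA added, and sequenced as paired reads of 150 bases. The submitters' processing notes name build hs1 and the tools fastp, Bowtie2, bedtools and MACS2. Their versions and parameters, any control library and the handling of reads with several matches are not stated in what was used here. The authors deposited 1 peak list per library. Its fold enrichment ratio, its -log10 p and -log10 q values and its score are the authors' own, and q-values under 0.1 were kept, since the smallest deposited -log10 q was just above 1. Summit pileups were recovered from the deposited fold and p through the peak caller's formulas. All those under 200 came out whole within 0.05.

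Positions count from 1. Shares, densities and medians were compared over libraries by exact permutation or sign-flip tests. Windows (log2 of covered bp per Mb of covered length plus a pseudocount of 10) and shared regions (log2 pileup) were fitted over the whole genome with limma 3.58.1 in R 4.3.3, with Benjamini-Hochberg adjustment at 0.05; both fits were tested on simulated data. Named were the 10 strongest regions called in all 4 libraries, the 2 strongest of each arm, the 3 strongest of each state-only class and the 3 largest differences in each direction. Members and lists were chosen with earlier results of these data known. The occupied windows, sides, clusters and repeated spacing were chosen after seeing the data. Depth is known only through the background, and p-values rest on 2 libraries per group.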

Additional observations from a re-analysis of the deposited data

How the results depend on the processing

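Of 176 alternative values, 162 kept their direction and side of the threshold or moved little, and the short-to-long ratio was under 1 in 97 of 97. Differences between states were small and several changed sign. At a -log10 q of at least 5 the share difference was -0.00594 percentage points and the log2 density difference -0.00770. With equal list lengths the summit strength difference between states was -0.0110. Leaving out each library gave -0.0333 to 0.0564 points for the share, -0.156 to 0.310 for density, -0.184 to 0.350 for covered length (both log2), -0.0424 to 0.0831 for strength and -0.0498 to 0.134 for the median of shared regions. The lowest value came without mitotic replicate 3, except for strength, where it came without asynchronous replicate 3 (-0.0221 without mitotic replicate 3). With each library left out, the density ratio itself was 0.109 to 0.122 and the covered length ratio 0.109 to 0.124. At the stricter q these were 0.152 and 0.146, with density ratios of 0.502 on chromosome 13, 0.0782 on chromosome 15 and 0.0487 on chromosome 22, and over occupied windows the density ratio was 0.337. With each library left out, short-arm strength against the long arms ranged from -0.208 to -0.166. It was -0.279 at the stricter q, -0.221 with the long arm taken from 5 Mb past the limit, and 0.197 by the authors' fold. At the stricter q, asynchronous-only and mitotic-only regions numbered 2 and 6, and the share in all 4 libraries was 24.8% (long arms 21.3%). With a reciprocal overlap of 50% it was 7.40% (4.90%). With the replicate number as a replicate block, 0 short-arm windows and 0 short-arm regions were called, of 3 windows and 14 regions over the genome; the shared numbers are not known to pair the samples. Peak lists limit all values to places that passed the caller, and most summits hold too few fragments to show moderate differences.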
